A study of Mus musculus with 13 samples.

Results

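Cdx2, Elf5, Tfap2c, Gata3, Hand1, Krt8 and Krt18 are genes of the trophoblast, the outer layer of the early embryo that forms the placenta, and of simple epithelium. They were taken by symbol from a table of gene counts in mouse embryonic stem cells and make up 7 of its 24470 genes. The series applied a low-input protocol to E14 embryonic stem cells of the 129/Ola background, a line whose label names no genotype change or drug treatment. All cells were grown in GMEM with 15% fetal bovine serum and leukemia inhibitory factor (LIF), which holds them in a pluripotent state. Permeabilized cells were cut with the transposase Tn5 at open chromatin, and oligo-dT beads then took mRNA from the same lysate. Each run thus gave an ATAC-seq library of open DNA and an mRNA library. Experiment 1 used 10000 and 20000 cells, and experiment 2, on another day, used 5000, 10000 and 20000 cells. The benchmark protocol, Omni-ATAC, was run on 5000, 10000 and 50000 cells with 1 library each, without mRNA. The comparisons therefore rest on 5 mRNA libraries and 8 ATAC peak lists, and the labels do not give separate cultures within a day.

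In the mouse embryo the first choice of fate separates the inner cell mass, from which embryonic stem cells come, from the trophectoderm. Cdx2, Gata3, Tfap2c and Elf5 encode transcription factors that set up or hold the trophoblast fate, and Hand1 acts later, in trophoblast giant cells and also in mesoderm. Krt8 and Krt18 encode the type II and type I keratins that pair into the intermediate filaments of simple epithelia. The trophoblast factors are known to be held low in embryonic stem cells.

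The cells matched their label. Pou5f1 stood at 151 to 233 CPM (counts per 1000000 counts of the library), Sox2 at 137 to 179 CPM and Nanog at 207 to 251 CPM over the 5 libraries. All 5 listed stem cell markers passed the filter on low counts. For experiment 2 against experiment 1, in the fit described further down, 2 of them, Klf4 and Zfp42, were called higher, against 5.75% of all tested genes, with a list median log2 fold change of 0.308. Klf4 had a value of 0.42 with an edgeR adjusted p of 0.0381, and neither gene was called in a fit without 1 library. Of 8 genes of differentiated trophoblast, Prl2c2 and Synb had no count in any library, and the summed level of the 8 was 0.490 to 1.89 CPM. Total counts per library ran from 13727122 to 20426252, so that 3 counts, the floor used for a count of 0, equal 0.1469 to 0.2185 CPM. In the table as a whole, 4584 genes had no count and 12958 (53.0%) had a mean under 1 CPM. Intervals and floors cover counting error only, since these reads are not shown to be independent molecules.

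The start regions of Cdx2, Krt8 and Krt18 are shown, since each had an entry in the RefSeq promoter table and an ATAC peak within its 250 bases; the peaks are described further down. Each line gives the 250 bases before the start of transcription from RefSeq GRCm38.p6, 5′ to 3′ on the gene's strand. The capitals mark the bases under the peak of 1 list. For Cdx2 (chr5:147307250-147307499, minus strand) that is the peak of Omni-ATAC with 10000 cells, which is 160 bp wide and runs 41 bases past the start. For Krt8 (chr15:102004343-102004592, minus strand) it is the 9 bp peak of the low-input list of experiment 2 with 20000 cells. For Krt18 (chr15:102027966-102028215, plus strand) it is the 20 bp peak of Omni-ATAC with 50000 cells, of which 19 bases lie before the start. The reference is not the 129/Ola genome of E14 cells.
Cdx2: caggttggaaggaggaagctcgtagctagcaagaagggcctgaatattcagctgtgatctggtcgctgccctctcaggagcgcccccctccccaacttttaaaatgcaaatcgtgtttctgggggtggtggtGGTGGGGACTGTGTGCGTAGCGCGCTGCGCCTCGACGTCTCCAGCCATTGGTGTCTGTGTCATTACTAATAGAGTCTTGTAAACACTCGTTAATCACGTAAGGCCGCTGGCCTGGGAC
Krt8: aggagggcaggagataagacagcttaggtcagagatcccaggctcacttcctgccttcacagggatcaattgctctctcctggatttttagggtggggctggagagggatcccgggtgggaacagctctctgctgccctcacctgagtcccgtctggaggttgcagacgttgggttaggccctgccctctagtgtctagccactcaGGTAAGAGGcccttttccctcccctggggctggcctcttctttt
Krt18: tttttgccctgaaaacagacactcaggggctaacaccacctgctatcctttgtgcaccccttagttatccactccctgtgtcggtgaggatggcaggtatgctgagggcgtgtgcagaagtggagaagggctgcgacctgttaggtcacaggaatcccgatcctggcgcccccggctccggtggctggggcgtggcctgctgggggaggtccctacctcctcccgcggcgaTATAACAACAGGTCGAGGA
G and C made up 55.2% of the Cdx2 stretch, 58.0% of the Krt8 stretch and 60.4% of the Krt18 stretch.

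Short motifs were searched on both strands of the 300-base RefSeq windows, which reach from 250 bases before to 50 bases after the start. Tfap2c and Hand1 have no such window and were not searched. Positions count the start base as 0. TATAAA, the letters of the TATA box, was in 13.6% of 32851 windows and, among the members with a window, in that of Krt8. Its matches began at -3 and -1, overlapped each other and ran across the start base itself. The match at -3 was on the opposite strand. GCCNNNGGC, a form of the AP-2 motif that factors such as Tfap2c bind, was in 16.6% of windows. It was found once in Cdx2 at -16, once in Krt18 at -83 and 3 times in Gata3 at -246, -231 and -221. In the Cdx2 line above, that match falls within the capitals. GGGCGG, the GC box, was in 35.7% of windows and, among the members, in Gata3 at -188 and -176. GGAATG, a TEAD motif, was in 14.7% of windows and, among the members, in the window of the first Elf5 start at -173. These matches are letters in a window, and binding was not measured.

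Of the 5 transcription factor genes, 4 were at the edge of detection. Cdx2, the factor that defines the trophectoderm (gene ID 12591, chr5:147300900-147307249, minus strand), had 0 and 4 counts in experiment 1 at 10000 and 20000 cells. In experiment 2 it had 7, 0 and 10 counts at 5000, 10000 and 20000 cells. The levels were 0 and 0.268 CPM, then 0.418, 0 and 0.490 CPM. Both libraries from 10000 cells were empty, which allows up to 0.2185 CPM in experiment 1 and 0.1935 CPM in experiment 2. The lower 95% Wilson bounds of the other 3 libraries were 0.104, 0.202 and 0.266 CPM. The experiments overlapped, and the gene had 21 counts in all.

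Elf5, which keeps trophoblast stem cells in their state (gene ID 13711, chr2:103412098-103450989, plus strand), had 10 counts in the library from 5000 cells of experiment 2. That is 0.597 CPM, with a 95% Wilson interval from 0.324 to 1.10 CPM. The other 4 libraries held no Elf5 count, which allows up to 0.1469 to 0.2185 CPM. These floors do not reach the interval of the 5000-cell library, which has no replicate at its cell number.

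Gata3, a zinc-finger factor of the trophectoderm (gene ID 14462, chr2:9857078-9878600, minus strand), had 0 and 7 counts in experiment 1 and 2, 16 and 4 counts in experiment 2. The levels were 0 and 0.468 CPM against 0.119, 1.03 and 0.196 CPM. The highest value was in the library from 10000 cells of experiment 2, and the experiments overlapped. Hand1, a basic helix-loop-helix factor (gene ID 15110, chr11:57828713-57832147, minus strand), had 5 and 0 counts in experiment 1 and 0, 1 and 6 in experiment 2, or 0.364 and 0 CPM against 0, 0.0645 and 0.294 CPM. None of these 4 genes passed the filter on low counts, so none was tested. The mesoderm markers, which matter for Hand1, summed to 46.5 to 61.5 CPM in experiment 1 and 49.0 to 50.3 CPM in experiment 2. Bmp4 made up most of that sum, at a mean of 47.6 CPM.

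Tfap2c, an AP-2 factor of trophoblast and germ cells (gene ID 21420, chr2:172549593-172558622, plus strand), was the 1 factor of the 5 found in every library. It had 28 and 50 counts in experiment 1 and 102, 64 and 129 in experiment 2, or 2.04 and 3.35 CPM against 6.09, 4.13 and 6.32 CPM. Every library of experiment 2 lay above both of experiment 1. The means were 2.69 ± 0.923 CPM (SD, n = 2) and 5.51 ± 1.20 CPM (SD, n = 3). Of the 12522 tested genes whose gene ID occurs once, 17.6% had all 3 libraries of experiment 2 above both of experiment 1. The order itself is therefore a common one.

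**Figure D1:**
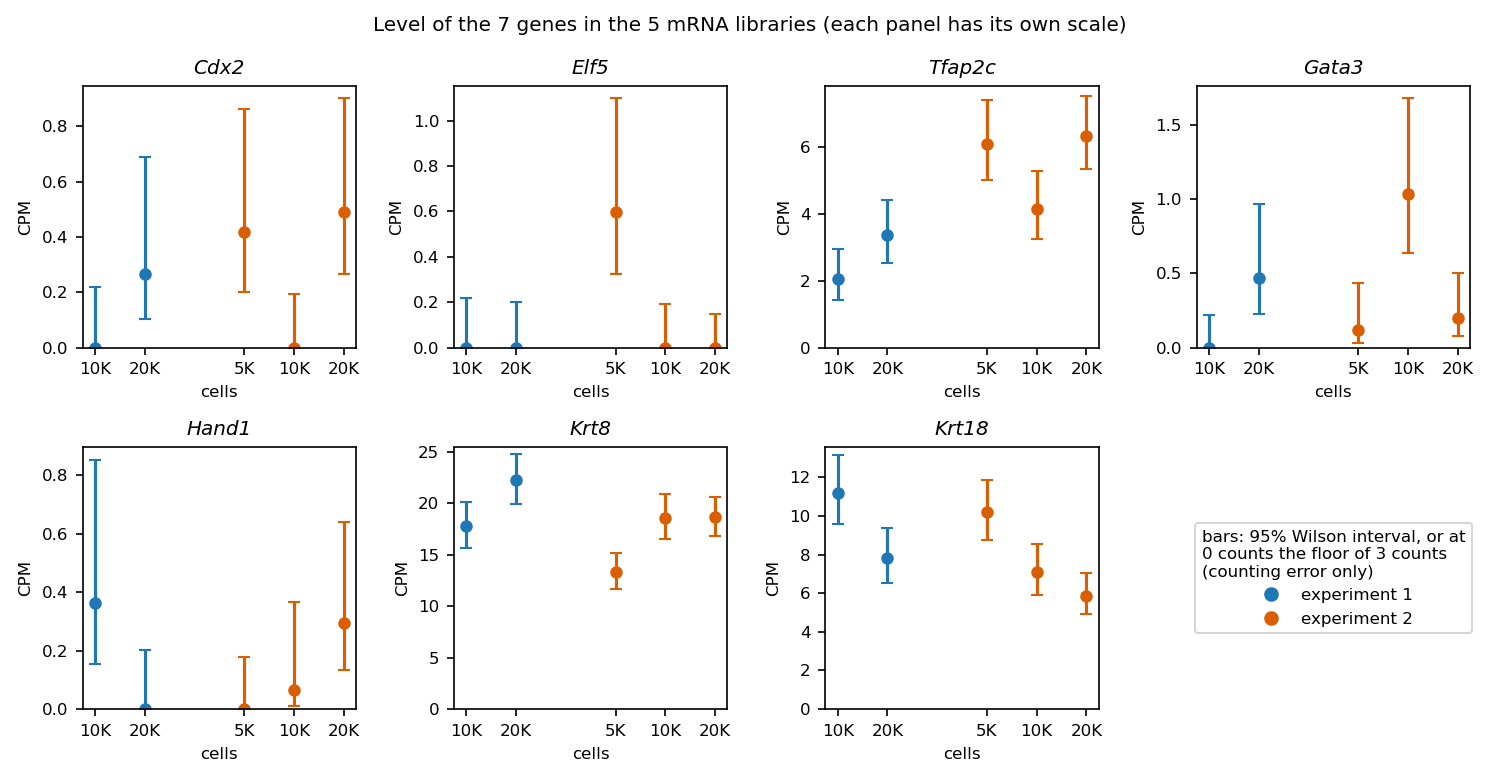
Level of each of the 7 genes in the 5 mRNA libraries, in CPM with 95% Wilson intervals of counting error (at 0 counts, bars up to the floor of 3 counts), each panel on its own scale. Tfap2c runs from 2.04 to 6.32 CPM with experiment 2 above experiment 1, while Cdx2, Elf5, Gata3 and Hand1 stay at or under 1.03 CPM.

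Krt8 (gene ID 16691, chr15:101996711-102004342, minus strand) was detected throughout, with 244 and 332 counts in experiment 1 and 223, 288 and 380 in experiment 2. The levels were 17.8 and 22.2 CPM against 13.3, 18.6 and 18.6 CPM, with a mean of 18.1 ± 3.18 CPM (SD, n = 5). Its partner Krt18 (gene ID 16668, chr15:102028216-102032026, plus strand) had 154 and 117 counts in experiment 1 and 171, 110 and 120 in experiment 2. The levels were 11.2 and 7.83 CPM against 10.2, 7.09 and 5.88 CPM, with a mean of 8.44 ± 2.21 CPM (SD, n = 5). For both keratins the experiments overlapped. A pseudogene, Krt8-ps, stands in the RefSeq table and not in the count table, and how reads matching several places were counted is not given in the sources used here. The keratin counts are uncertain to that extent.

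Within each experiment the keratins were ordered by cell number, in opposite directions. Krt18 was lower at each larger cell number: 11.2 then 7.83 CPM in experiment 1, and 10.2, 7.09 and 5.88 CPM in experiment 2. Krt8 was higher at each larger cell number, although its last step in experiment 2 was from 18.57 to 18.60 CPM. Krt8 therefore took a growing share of the counts of the pair. In experiment 1 it held 61.3% (95% Wilson interval 56.4% to 66.0%) at 10000 cells and 73.9% (69.7% to 77.8%) at 20000 cells. In experiment 2 it held 56.6% (51.7% to 61.4%) at 5000 cells, 72.4% (67.8% to 76.5%) at 10000 and 76.0% (72.1% to 79.5%) at 20000. These intervals hold counting error only, and between single libraries they are no test of cell number or experiment. The share of all genes with such an order by cell number is not given here, so how common it is cannot be judged. An exact two-sided permutation of cell numbers within experiments, chosen after the values had been seen, gave p = 0.167 for the share, with 4 of 4 pairs rising. Adjusted over the 3 measures tried (the share and the CPM of each keratin) it was also 0.167, the smallest p that 12 arrangements allow. Any measure in full order by cell number gives this p, and the share is built from the counts of both keratins. The permutation therefore cannot decide whether cell number matters.

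**Figure D2:**
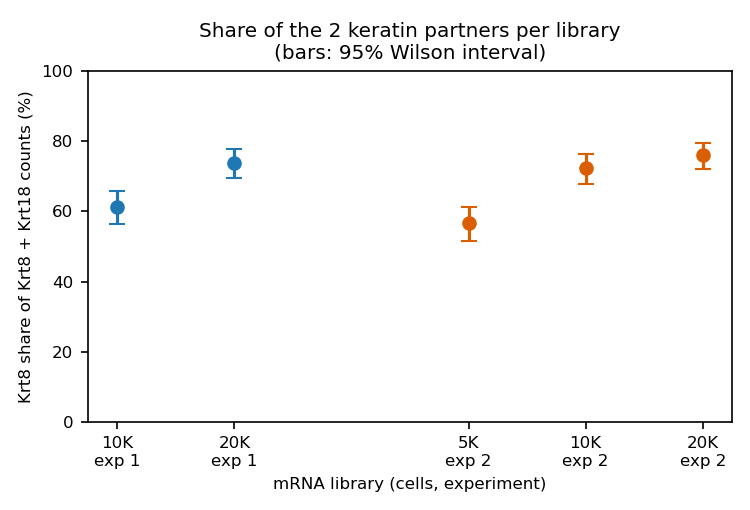
Krt8 as a percentage of the counts of Krt8 and Krt18 together in each mRNA library, with 95% Wilson intervals of counting error. The share rises with cell number within both experiments, from 61.3% to 73.9% in experiment 1 and from 56.6% to 76.0% in experiment 2.

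The fit across genes did not call these differences by cell number. It used edgeR's quasi-likelihood test with Benjamini-Hochberg adjustment on the 4 libraries from 10000 and 20000 cells. For 20000 against 10000 cells the log2 fold change was -0.43 ± 0.37 (SE) for Krt18, 0.15 ± 0.23 for Krt8 and 0.63 ± 0.55 for Tfap2c, each with an adjusted p of 0.999 in edgeR. Of 12523 genes tested 0 were called, or 0.0%, while 101 had an unadjusted p under 0.05, and DESeq2 also called 0. With the experiment as a block the Krt18 value was -0.41 ± 0.30 with an adjusted p of 0.998 in edgeR. Over all alternatives, the fits without a library included, the value ran from -0.71 to -0.07 for Krt18, from 0.03 to 0.28 for Krt8 and from 0.10 to 1.25 for Tfap2c, and none was called. The library from 5000 cells, which has no partner in experiment 1, is not part of this fit.

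For experiment 2 against experiment 1, the same 4 libraries gave calls for 12.5% of the 12523 genes tested, 5.75% higher and 6.76% lower. The median log2 fold change of all genes was 0.000997. None of the 3 members tested was called by edgeR or by DESeq2, and 1 of the 3 had an unadjusted p under 0.05, as did 25.7% of all tested genes. Tfap2c differed by 0.95 ± 0.42 (log2 fold change ± SE) with an edgeR adjusted p of 0.144, and was higher in 2 of 2 libraries of experiment 2. Without the library from 20000 cells of experiment 1 the value was 1.38 ± 0.47 with an edgeR adjusted p of 0.0296. Without the 20000-cell library of experiment 2 it was 0.63 with 0.622, and without the 10000-cell library of experiment 1 it was 0.65 with 0.409. Over 10 alternatives the adjusted p for Tfap2c ran from 0.0296 to 0.622. Krt8 differed by -0.10 ± 0.20 with an edgeR adjusted p of 0.801 and Krt18 by -0.55 ± 0.29 with 0.235, neither of them past the threshold. With the 5000-cell library added, Krt18 was at -0.25 with an edgeR adjusted p of 0.662. Over 10 alternatives, the fits without a library included, the Krt18 value ran from -0.78 to -0.25. Each p-value measures the spread between libraries of 1 day each, so that day and experiment cannot be told apart.

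The keratins lie on chromosome 15, where genes were lower in experiment 2 as a body. Its 506 tested genes had a median log2 fold change of -0.29, with 8 called higher and 99 called lower. Less that median, Krt8 stood at 0.19, the other side of 0, and Krt18 at -0.26 in place of -0.55. Markers of primitive and other endoderm, an epithelium that also uses these keratins, summed to 11.6 to 15.5 CPM in experiment 1 and 2.69 to 3.03 CPM in experiment 2. Dab2, which gave the largest part of that sum by mean CPM, lies on chromosome 15 as well. It was lower in experiment 2 by a log2 fold change of -3.07 with an edgeR adjusted p of 0.000264. Of the 4 endoderm markers tested, 2 were called and both were lower, against 6.76% of all tested genes called lower. They were Dab2 and Gata6, and the call of Gata6 was lost without the 10000-cell library of experiment 1 (edgeR adjusted p of 0.333) or of experiment 2 (0.143), which leaves 1 of the 2. The part that either has in the keratin values was not tested, and fewer cells of a type and less RNA per cell cannot be told apart in these bulk libraries. Squamous epithelium markers summed to 11.0 to 15.2 CPM over the 5 libraries, nearly all of it Krt10 at a mean of 11.9 CPM, and Krt5 had no count.

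The profile of Krt8 over the 5 libraries was set against those of the 6484 other genes averaging 10 CPM or more. The measure was the Euclidean distance between centred log2(CPM + 1) profiles. The nearest were Hsf2 at 0.0497, Cbwd1 at 0.0767 and Ptk2, also on chromosome 15, at 0.0778. Hsf2, for example, stood at 27.1 and 33.1 CPM in experiment 1 and at 20.6, 27.6 and 27.4 CPM in experiment 2. Likeness over 5 libraries is a description and has no test. No other member had a mean of 10 CPM.

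Among 30 other trophoblast genes, 20 were tested, 2 were called higher in experiment 2 and 1 lower, with a median log2 fold change of 0.0895. Of all tested genes 5.75% were called higher and 6.76% lower, so the count is near the background. Of the rest, 9 were higher and 8 lower without a call. Id2, an inhibitor of helix-loop-helix factors that trophoblast progenitors express, stood at 21.1 and 19.7 CPM in experiment 1 and 89.7, 96.99 and 95.02 CPM in experiment 2. Its log2 fold change was 2.236 ± 0.151 with an edgeR adjusted p of 2.03e-10, and the groups were far apart. Zfp42 (Rex1), shared by naive stem cells and early trophoblast and also on the stem cell list, stood at 344 and 320 CPM against 466, 430 and 432 CPM. It rose by 0.38 ± 0.11 with an edgeR adjusted p of 0.0282, a call held in 0 of the 4 fits without a library, where the adjusted p went up to 0.171. Zfp42 lies on chromosome 8, whose 692 tested genes had a median of 0.463, with 210 called higher and 9 lower.

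Ascl2, a helix-loop-helix factor needed for the spongiotrophoblast, was the trophoblast gene called lower. It stood at 3.86 and 5.62 CPM in experiment 1 and at 3.76, 1.61 and 1.86 CPM in experiment 2. Its log2 fold change was -1.44 ± 0.46 with an edgeR adjusted p of 0.0409, and the 5000-cell library lay only just below the lower library of experiment 1. DESeq2 gave it an adjusted p of 0.132, edgeR with the 5000-cell library added gave -0.92 with an adjusted p of 0.219, and the call held in 1 of the 4 fits without a library, that without the 10000-cell library of experiment 1. Without the library from 10000 cells of experiment 2, 1 of the 21 trophoblast genes then tested was called, and without that from 20000 cells 1 of 19, in place of 3 of 20. Eomes and Tead4, which act beside Cdx2 in the trophectoderm, had values of 1.92 and -0.99 with edgeR adjusted p of 0.0928 and 0.131.

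Among 25 other epithelial genes, 21 were tested, 2 were called higher in experiment 2 and 3 lower, with a median log2 fold change of -0.00421, against 5.75% and 6.76% of all tested genes. S100a6, a calcium-binding protein, stood at 53.6 and 44.9 CPM in experiment 1 and at 124, 120 and 95.2 CPM in experiment 2, and Anxa2, a membrane-binding annexin, at 6.34 and 12.04 CPM against 18.1, 23.9 and 24.0 CPM. They rose by 1.13 ± 0.15 and 1.38 ± 0.24, with edgeR adjusted p of 9.21e-06 and 0.000343. These are genes that mesenchymal cells express as well. Fibroblast markers summed to 141 to 152 CPM in experiment 1 and to 281 to 326 CPM in experiment 2. Vim gave most of that sum, with a mean of 222 CPM, and was the 1 marker of the 4 tested that was called higher. Thy1, a surface marker of fibroblasts, went the other way, from 29.2 and 33.9 CPM to 9.78, 6.77 and 7.05 CPM, with a log2 fold change of -2.19 ± 0.21 and an edgeR adjusted p of 6.75e-08. Col3a1 and Lum had no count in any library, and the part of such cells in these values was not tested.

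The epithelial genes called lower encode adhesion parts and a regulator. Epcam, a surface adhesion protein, stood at 55.95 and 52.1 CPM in experiment 1 and at 27.1, 29.3 and 30.8 CPM in experiment 2. Pkp2, a desmosome plaque protein, stood at 33.1 and 27.1 CPM against 15.3, 10.2 and 14.9 CPM. Grhl2, a transcription factor of epithelial identity, stood at 7.94 and 6.42 CPM against 3.64, 3.03 and 2.69 CPM. In all 3 the experiments did not overlap, as held for 23.9% of the 12522 tested genes in this direction. Their log2 fold changes were -0.84 ± 0.15, -1.26 ± 0.21 and -1.33 ± 0.36, with edgeR adjusted p of 0.000546, 0.000171 and 0.0163. Epcam and Pkp2 kept their call in all 11 alternatives, while Grhl2 had an adjusted p of 0.0656 in DESeq2 and was called in 1 of the 4 fits without a library, that without the 20000-cell library of experiment 1. Grhl2 lies on chromosome 15 with the keratins. Cdh1, the E-cadherin gene, had a value of 0.46 with an edgeR adjusted p of 0.0633 and lies on chromosome 8.

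**Figure D3:**
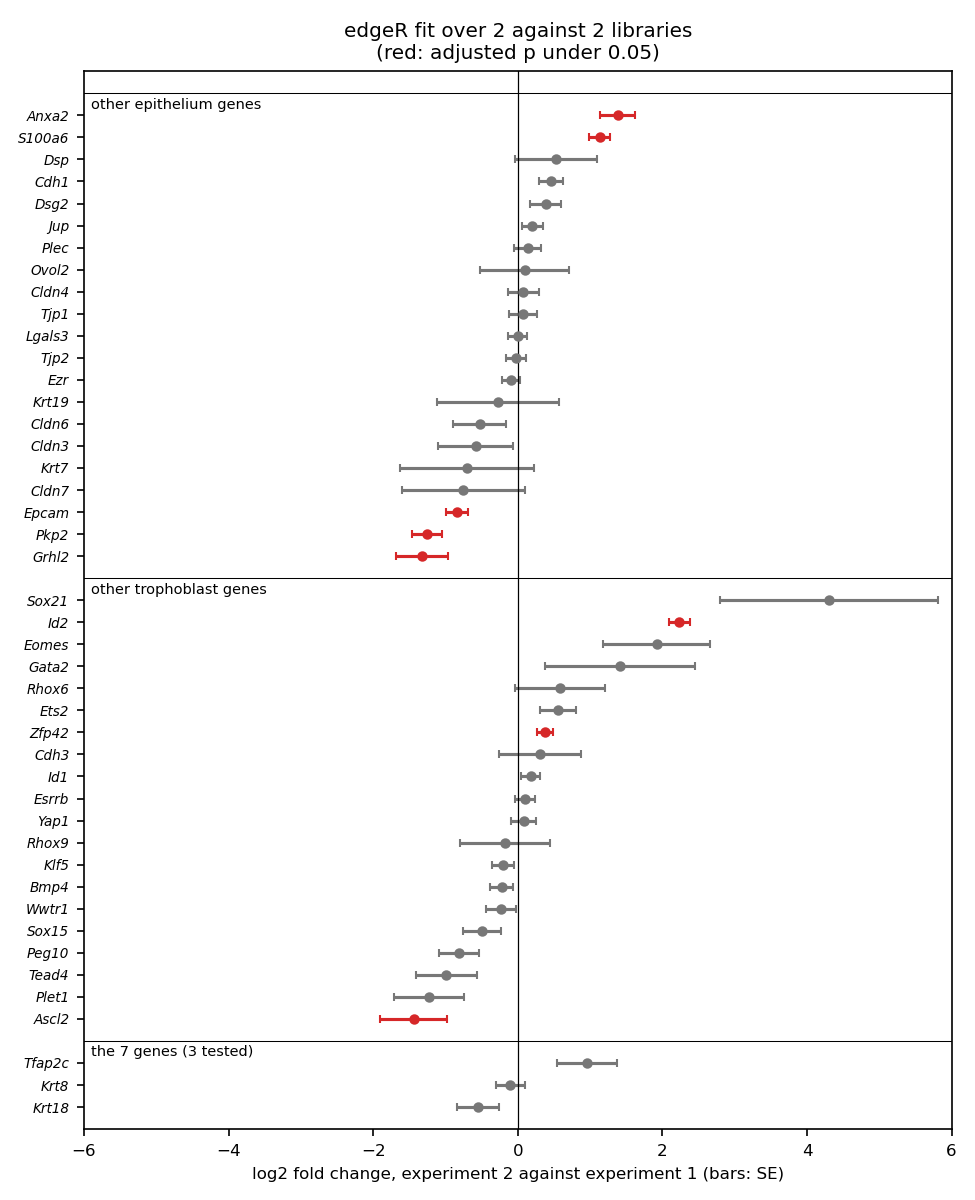
Log2 fold change, experiment 2 against experiment 1, with SE, for the 3 tested members and for the tested genes of the trophoblast list (20) and the epithelium list (25 listed, 21 tested). Points in red have an edgeR adjusted p under 0.05, which none of Tfap2c, Krt8 and Krt18 has.

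Open chromatin was read from the peak lists, which give intervals without a height. Their lengths differ, from 9097 peaks in Omni-ATAC with 5000 cells to 95457 in Omni-ATAC with 50000 cells, and from 18637 to 49508 in the low-input lists. Of each list, 24.4% to 59.2% of the peaks are the shortest possible, 9 bp. A gene was counted as having a promoter peak where a peak came within 1000 bp of its start. That was so in 20 of 56 combinations of member and list, or 35.7%, against 39.0% over all genes. This count turns on the window: within 500 bp it was 8 of 56 (14.3%) against 36.5%, and within 2500 bp 29 of 56 (51.8%) against 42.6%. With the 9097 widest peaks of each list it was 11 (19.6% against 20.9%), and from the RefSeq gene starts 10 (17.9% against 37.6%). The 4 members with a mean under 1 CPM had a promoter peak in 8 of 32 combinations, or 25.0%, against 16.0% for all genes at that level. The 3 members at or above it had one in 12 of 24, or 50.0%, against 64.8% for all genes at that level. Of the 8 combinations of the members under 1 CPM, 4 came from Gata3, through a region at the edge of the window. For Cdx2, Elf5, Gata3 and Hand1 in turn, the lists with a promoter peak were 3, 0, 0 and 0 within 500 bp. Within 2500 bp they were 4, 1, 8 and 1, and from the RefSeq gene starts 3, 0, 0 and 1.

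By list, the low-input libraries had a promoter peak at 2, 2, 1, 2 and 4 of the 7 genes, for experiment 1 with 10000 and 20000 cells and experiment 2 with 5000, 10000 and 20000 cells. The shares of all genes in these lists were 31.1%, 37.4%, 31.1%, 40.5% and 50.3%. Omni-ATAC had 0, 3 and 6 of 7 with 5000, 10000 and 50000 cells. The longer Omni-ATAC lists thus held more of the members, as they did of all genes, from 18.6% to 61.1%. Between 1000 and 20000 bp from the start, 38 of 56 combinations held a peak (67.9%), against 44.3% over all genes. In the authors' unified list of 18310 peaks, Tfap2c and Gata3 had a promoter peak, 2 of 7 against 33.2% of all genes, and Cdx2 and Krt8 a peak farther out, 2 of 7 against 34.8%.

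**Figure D4:**
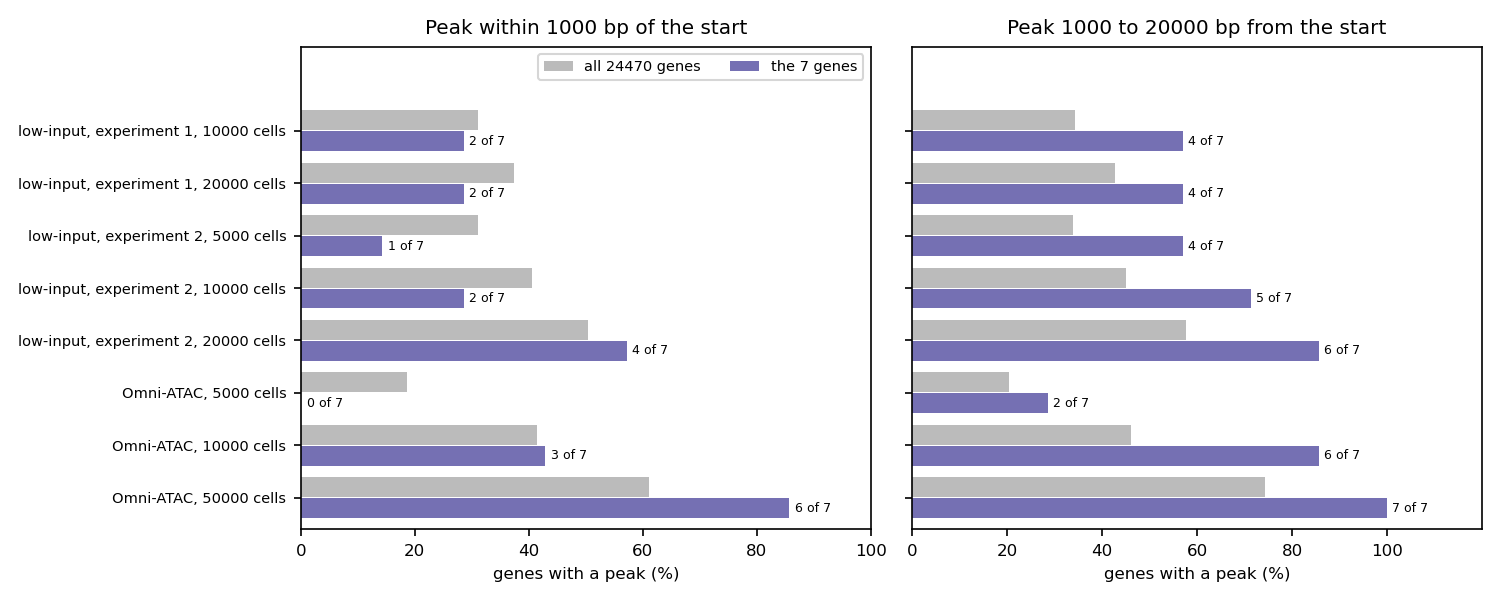
Share of genes with a peak within 1000 bp of the start (left) and 1000 to 20000 bp from it (right) in each of the 8 ATAC lists, for the 7 genes and for all 24470. The members have between 0 and 6 promoter peaks of 7 per list, and for the farther peaks the bar of the members is the longer one in every list.

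For Cdx2, a gene with hardly any mRNA, the recurrent open sites lay beyond its 3′ end. The region chr5:147299259-147299869, which begins 1031 bp past the end of the gene, was in all 8 lists. In Omni-ATAC with 5000 cells and in low-input with 5000 cells its peak was 9 bp wide, and in Omni-ATAC with 50000 cells it was 611 bp wide. A second region, chr5:147293236-147293721, was in 7 lists and begins 7179 bp past the end. The promoter shown above held a peak in 3 lists. It was 9 bp wide in low-input of experiment 2 with 20000 cells, 160 bp in Omni-ATAC with 10000 cells and 767 bp in Omni-ATAC with 50000 cells.

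Gata3, also with hardly any mRNA, had a region in all 8 lists, chr2:9879372-9879868, at -1268 to -772 bp from the start in the count table. In the low-input lists its peak was 121 to 281 bp wide. It sits at the edge of the promoter window: the peak of experiment 1 with 10000 cells ends at -1005 bp from the start and is not counted, and that with 20000 cells ends at -977 bp and is. With a window of 2500 bp, Gata3 would have a promoter peak in 8 lists in place of 4. The RefSeq promoter table has this same start, while the RefSeq gene as a whole begins 9353 bp farther upstream, and the region lies 8085 to 8581 bp after that outer start. A second region, chr2:9889369-9889879, was in 5 lists, all 3 of the low-input lists of experiment 2 and none of experiment 1, and lies at -1926 to -1416 bp from the outer RefSeq start. Its peak was 9 bp wide in 2 of the 5 lists. That split between the experiments held for 1.02% of the 107870 merged regions and for 17.8% of the 6192 found in 3 low-input lists. The lists of experiment 1 hold 18877 and 27016 peaks and those of experiment 2 hold 18637, 29870 and 49508, and the part of list length in the split was not tested.

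Tfap2c carried its recurrent region inside the gene, chr2:172550359-172550716, 766 to 1123 bp after the start. It was in 7 lists, all but Omni-ATAC with 5000 cells, and its peaks were 79 to 321 bp wide. In each of these lists but Omni-ATAC with 50000 cells, the peak began 979 or 992 bp after the start. That is just inside the edge of the 1000 bp window. Nearer to the start, at -121 to -103, a peak of 14 or 19 bp was found in low-input of experiment 2 with 20000 cells and in Omni-ATAC with 50000 cells. With a window of 500 bp, Tfap2c would therefore count in 2 lists in place of 7. The RefSeq gene begins 3915 bp farther upstream, so that the recurrent region lies 4681 to 5038 bp after that start, and within 1000 bp of it 1 list held a peak.

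Elf5 had no peak within 1000 bp of its start in any list. Its recurrent region, chr2:103424732-103424912, was in 6 lists and lies in the gene, 12634 to 12814 bp from the start. RefSeq gives a second Elf5 start at 103424068 on chromosome 2, and the region lies 664 to 844 bp after it. In 3 of the 6 lists the peak was 9 bp wide. The 5000-cell library of experiment 2, which held the Elf5 counts, had such a 9 bp peak, as did both libraries of experiment 1, which held none. Hand1 had its most frequent region, in 4 lists, 3204 to 3506 bp past its 3′ end, and a promoter peak, 9 bp wide, in Omni-ATAC with 50000 cells alone.

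Krt8 and Krt18 point away from each other, with starts 23874 bp apart, and differed in their peaks. Krt8 had a region in all 8 lists, chr15:101984024-101984606, which begins 12105 bp past its 3′ end, although in Omni-ATAC with 5000 cells the peak lies just beyond 20000 bp from the start. A region inside the gene, chr15:102002958-102003449, 893 to 1384 bp after the start, was in 6 lists, with 5 of its 8 peaks 9 bp wide. The promoter line of Krt8 above held a peak in 1 list, 9 bp wide.

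Krt18 was detected in every mRNA library, yet each of the 6 regions within 20000 bp of its start was in 1 list only. The 1 low-input peak was 9 bp wide, at -303 to -295 bp from the start, in experiment 1 with 10000 cells. Of the 107870 merged regions of the 8 lists, 55.1% were in 1 list and 9.52% in at least 7. Of the 41 regions near members, 20 were in 1 list and 5 in at least 7, with 3 regions between the keratin genes counted for both. Cdx2, Tfap2c, Gata3 and Krt8 had a region in at least 7 lists within 20000 bp, 4 of 7 genes, against 41.1% of all genes.

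**Figure D5:**
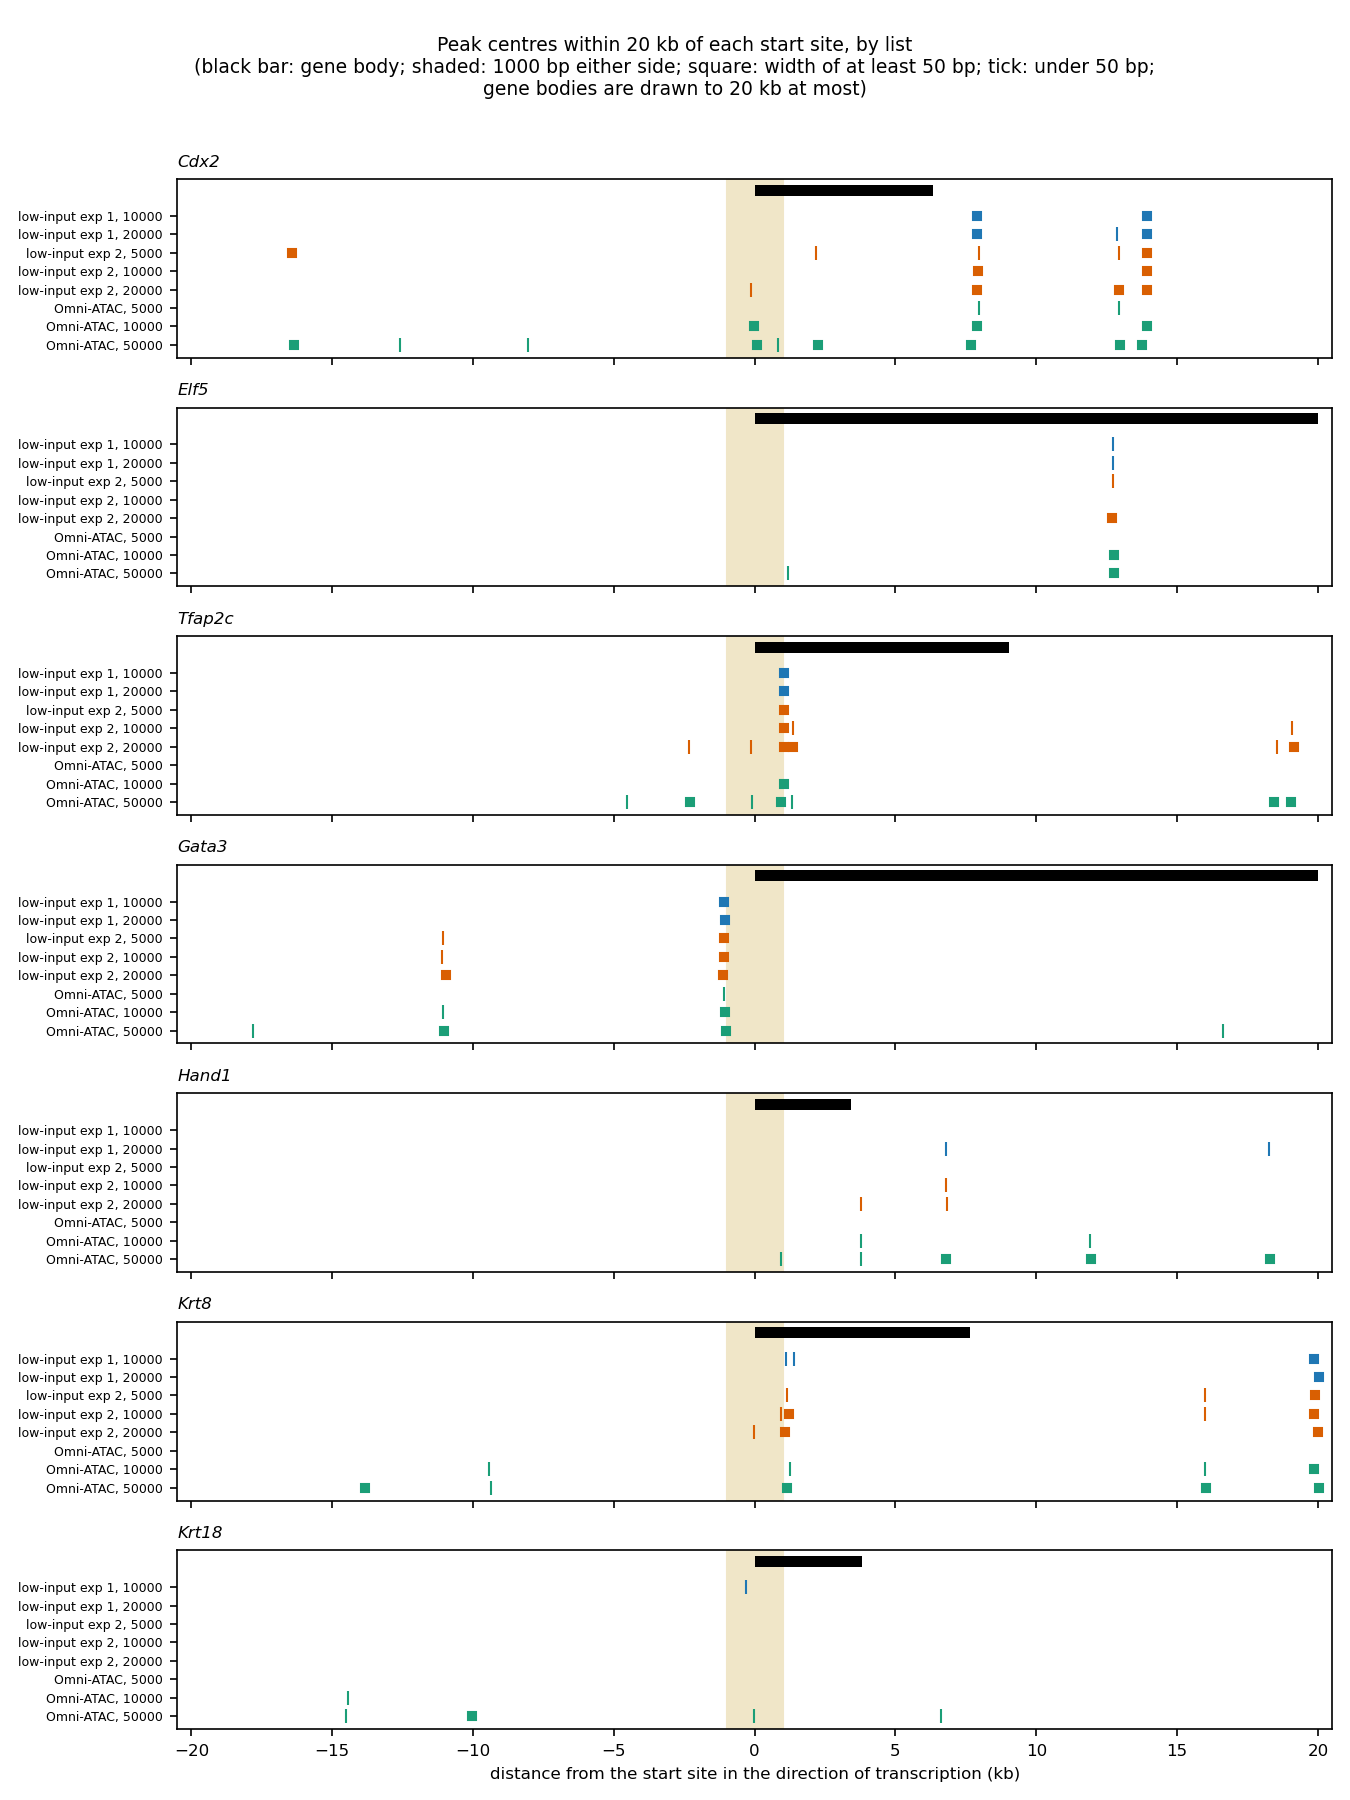
Peaks within 20 kb of each gene's start in the 8 ATAC lists, as distance from the start in the direction of transcription, with the gene body drawn to 20 kb at most. Rows in blue are low-input experiment 1, orange low-input experiment 2 and green Omni-ATAC; the columns of marks downstream of Cdx2, upstream of Gata3 and downstream of Krt8 recur over the lists, and those of Krt18 do not.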

How the data were processed

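Counts of reads per gene, whole numbers for 5 mRNA libraries, were deposited by the authors, and ATAC peaks as intervals with start and end (other values, such as a score or height, are not given), 1 list per library plus a unified list. The submitters' processing notes name cutadapt, Bowtie2 2.1.0, SAMtools 1.3.1, Picard, bedtools 2.24.0, MACS2 2.1.1, STAR 2.5, featureCounts, Subread 1.5.0-p1 and mm10, without role or order. The use of strand, the treatment of reads matching several places and the peak threshold are not given in the sources used here. Antisense and overlapping genes can therefore not be told apart.

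Groups came from the titles. The members and lists were chosen with earlier results of these data known. CPM are counts over the library total. edgeR 4.0.16 (R 4.3.3; TMM, filterByExpr, glmQLFit, glmQLFTest, Benjamini-Hochberg, threshold 0.05) was fitted to all genes of the 4 libraries from 10000 and 20000 cells, and tested on simulated data. DESeq2 1.42.0, other scalings and filters, a replicate block, leaving out each library, and other peak distances and widths were the alternatives. The experiments were run on different days, per the design text of the series, so the numbers mark a shared day: the differences between experiments at the 2 cell numbers correlated with r = 0.456 across 12523 genes. No library pair was a duplicate (chi-square per gene at least 10.1 over 10 pairs). Of 24470 gene IDs 24467 matched RefSeq, and 67.0% of starts were equal, so coordinates were read as 1-based. Regions are peaks of the 8 lists merged where they overlap by 1 bp.

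All members are named. From the trophoblast and epithelium lists, genes called with a mean of at least 1 CPM are named, up to 6 by size of the change. From the marker lists the most abundant gene is named, Krt7 of differentiated trophoblast excepted. Transcript lengths were not used here, so no ranking per length was made: sums over lists, the most abundant gene and the keratin share are in counts or CPM, which also depend on length. Genes named beyond these rules, such as Eomes, Tead4, Cdh1, Klf4, Gata6, Thy1 and the genes of the last section, were named after their values were seen. Peaks, intervals and plots were computed in Python 3.11.15 (pandas 2.3.3, numpy 2.4.6, matplotlib 3.10.9, scipy 1.17.1).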

Additional observations from a re-analysis of the deposited data

How the results depend on the processing

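Of 120 recomputed values 110 kept their direction and their side of the threshold (counts: stayed within 1.5 times), 1 passed the threshold, 2 changed sign and 7 counts moved farther. Leaving out single libraries, the number of members called for experiment 2 against 1 ran from 0 to 1, that of trophoblast genes from 1 to 3 (1 without either of the 10000- and 20000-cell libraries of experiment 2), that of epithelial genes from 4 to 6, and that for cell number was 0 throughout. Without the 20000-cell library of experiment 1, Tfap2c was called at 1.376 and Krt8 turned from -0.105 to 0.08215 (its range over left-out libraries began at -0.2556); less the chromosome 15 median, an alternative chosen after seeing the data, Krt8 was at 0.1861. With cell number as a replicate block Tfap2c was at 0.9618, with 0 members, 4 trophoblast and 6 epithelial genes called against 0, 3 and 5. The block on experiment in the cell number comparison left 0 called. Promoter peaks fell from 20 combinations to 8 within 500 bp, to 11 with the 9097 widest peaks of each list and to 10 at the RefSeq gene starts, and farther peaks from 38 to 19 with the widest peaks. By construction, the widest peaks are fewer peaks and 500 bp is a shorter window, while the RefSeq setting moves the start of Tfap2c and Gata3. Fits without 1 library leave 1 library in an arm, which is assumed to vary like the others. Depth limits Cdx2, Elf5, Gata3 and Hand1, at 10 to 29 counts in all, and the depth of the ATAC lists is unknown.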

Other observations

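The keratin family as a whole was looked at after the members' values had been seen. Of 54 keratin genes in the count table, 10 had no count and 6 had a mean of at least 1 CPM. Besides Krt8 and Krt18 these were Krt10, Krt16, Krt17 and Krt42. Krt42 stood at 156 and 134 CPM in experiment 1 and 135, 127 and 161 CPM in experiment 2. Krt17, a type I keratin best known from hair follicles and stressed skin, stood at 45.8 and 43.9 CPM in experiment 1 and 94.0, 86.9 and 115.4 CPM in experiment 2. Its log2 fold change was 1.18 ± 0.15 with an edgeR adjusted p of 4.47e-06 over all genes. The experiments did not overlap, as held for 17.6% of the 12522 tested genes in this direction. Krt16 went the other way, with 3.28 and 1.47 CPM against 0, 0.258 and 0.441 CPM. Its log2 fold change was -2.72 ± 0.83 (edgeR adjusted p of 0.0315). Of the 10 keratins tested, Krt17 and Krt16 were called, against 12.5% of all tested genes. Krt16, Krt17 and Krt42 lie on chromosome 11 and are close in sequence, so the split of reads among them is uncertain. None of the 3 had a peak within 1000 bp of its start in any of the 8 lists. All 3 had one between 1000 and 20000 bp in every list. Over all genes, 44.3% of combinations of gene and list held such a farther peak. The share of genes with one in every list is not given here. A peak within 20000 bp of more than 1 of the 3 starts counts for each. Over the family, 8 of 54 genes (14.8%) had a promoter peak in any list, against 61.6% of all genes. Among keratins with a mean under 1 CPM it was 6 of 48 (12.5%), against 34.8% of all genes at that level.

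The relatives of the transcription factors were read in the same way. Cdx1, a paralog of Cdx2, was found in every library, at 0.729 and 2.41 CPM in experiment 1 and 1.91, 4.13 and 5.88 CPM in experiment 2, so that the experiments overlapped. Its log2 fold change was 1.66 ± 0.51 with an edgeR adjusted p of 0.0306 over the 4 libraries. Alternative fits are not given here for Cdx1, Krt16 or Krt17. Of 5 AP-2 genes Tfap2c alone had a mean of at least 1 CPM. Tfap2a stood at 0 and 0.134 CPM against 0.955, 0.451 and 0.539 CPM. Tfap2d had no count.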
